A study of Mus musculus with 6 samples.

Results

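A set of 10 genes of the heart muscle contractile apparatus was followed in lung RNA: the myosin heavy chains Myh6 and Myh7, the myosin light chains Myl2 and Myl3, the myosin-binding protein Mybpc3, the spring protein Ttn, the thin filament genes Actc1, Tnnt2 and Tnni3, and the calcium release channel Ryr2. They were taken by symbol, and 10 of 10 were found among the 41388 genes of the count table. The lungs came from adult mice sampled at Zeitgeber time 7 (ZT7), 7 h after the lights came on, and 3 libraries were labelled wild type (WT1 to WT3) and 3 Zpbp2-/- (KO1 to KO3). WT mice were C57BL/6J, and KO mice, of the strain B6.129S7-Zpbp2tmZuk/Mmjax, carried a germline deletion of exons 1 to 3 of Zpbp2 kept on a C57BL/6J background, with WT mice bred in the same colony. No treatment is named for either genotype, the deletion was not limited to any tissue, and the sex of each mouse was not given in the labels. The study asked what the Zpbp2 deletion does to RNA levels in the lung, and the question here was how far the heart muscle genes differed between the genotypes and between single lungs.

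In mice, heart muscle cells continue from the left atrium into the walls of the pulmonary veins inside the lung, so lung RNA normally holds transcripts of these genes. In a sarcomere, thick filaments of myosin pull on thin filaments of actin, and troponin and tropomyosin on the thin filament let this happen only when calcium is released into the cell. Atrial and ventricular muscle use different light chains: Myl7 and Myl4 are the atrial forms, Myl2 and Myl3 the ventricular ones. Myh6 is the main heavy chain of the adult mouse heart, whereas Myh7 is the fetal and slow form, and Myl2, Myl3, Myh7 and Ttn are also made by skeletal muscle fibres. In bulk lung RNA, fewer heart muscle cells and less RNA per cell cannot be told apart.

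The promoters of 5 of the genes are shown because these 5 cover the patterns described here: genes that were low in every KO library (Myh6, Mybpc3 and Ryr2), a gene that was intermediate in KO1 (Actc1) and a gene that was high in WT3 and KO1 (Myl3). Each is the 120 bases before a RefSeq transcription start on GRCm38.p6, written 5′ to 3′ along the gene: Myh6 chr14:54966608-54966727 (minus strand), Mybpc3 chr2:91118024-91118143 (plus), Ryr2 chr13:12106946-12107065 (minus), Actc1 chr2:114052876-114052995 (minus) and Myl3 chr9:110763558-110763677 (plus). Capitals mark matches to the motifs of SRF (CArG), MEF2, the GATA factors (GATAA) and the TEAD factors (MCAT) and to the TATA box.
Myh6: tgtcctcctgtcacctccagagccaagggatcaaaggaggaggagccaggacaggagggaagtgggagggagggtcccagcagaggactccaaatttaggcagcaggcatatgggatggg
Mybpc3: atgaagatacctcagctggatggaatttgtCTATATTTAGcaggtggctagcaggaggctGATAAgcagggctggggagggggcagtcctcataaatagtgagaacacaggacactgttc
Ryr2: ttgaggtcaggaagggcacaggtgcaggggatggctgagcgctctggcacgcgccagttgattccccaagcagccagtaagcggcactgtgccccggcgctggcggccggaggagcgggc
Actc1: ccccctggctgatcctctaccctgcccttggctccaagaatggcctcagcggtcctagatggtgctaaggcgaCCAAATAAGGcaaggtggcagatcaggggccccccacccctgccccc
Myl3: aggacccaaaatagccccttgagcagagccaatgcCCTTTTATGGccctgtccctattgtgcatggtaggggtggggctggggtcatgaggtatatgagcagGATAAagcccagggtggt
In these stretches the capitals fell on a MEF2 and a GATAA match in Mybpc3, a CArG match in Actc1 and a CArG and a GATAA match in Myl3, and Myh6 and Ryr2 held none. Motifs were searched on both strands in the 250 bases before each start listed for the 10 genes, where a gene counted once if any of its windows held the motif. CArG (the SRF motif) was found in 2 of 10 genes (Myl3 and Actc1) and in 1.5% of 32817 promoters of the same length, and MEF2 in 2 of 10 (Mybpc3 and Ttn) against 2.9%. GATAA was found in 4 of 10 against 22.6%, CATTCC (the MCAT motif) in 4 of 10 against 12.6%, TATAAA in 1 of 10 against 12.4% and CANNTG (the E-box, not capitalized above) in 9 of 10 against 66.2%. The motifs can overlap each other, and genes with more than 1 listed start had more bases searched. The windows listed for Myl2 lie before the start that GENCODE gives this gene, so its matches refer to those windows only. The windows of Myh6, Actc1, Myl3 and Tnni3 and a window of Tnnt2 lie inside the gene span that GENCODE gives. For Myl3 the GENCODE start is 110741861, and the stretch shown begins at 110763558. Matches in these genes likewise refer to the RefSeq starts only. Genes low in every KO library thus included promoters with and without a MEF2 match.

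Library totals ranged from 59134950 to 71354388 counts, and 23070 to 23711 genes had a count. Zpbp2 itself had 20, 15 and 7 counts in WT1, WT2 and WT3 and 1, 0 and 0 in KO1, KO2 and KO3, so the labels matched the deleted gene, at low depth. KO2 and KO3 differed from each other by 1.71 to 3.32 times the variance that counting alone gives, against 1.86 to 147 times for the other pairs within a genotype, and their counts were therefore summed and used as 1 sample (n = 3 WT and n = 2 KO). Levels are given as CPM, the count scaled to a common library size, where 3 counts correspond to 0.0410 to 0.0514 CPM. WT3 and KO1 stood apart from the other 4 libraries. A list of 11 squamous epithelium genes summed to 4374 CPM in WT3 and 8199 CPM in KO1 but to 8.63 to 14.6 CPM in the others, and a list of 19 skeletal muscle genes summed to 4439 and 6624 CPM against 37.0 to 53.2 CPM. Results are therefore also given without WT3 and KO1.

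7 of the 10 genes were lower in every KO library than in every WT library, namely Myh6, Mybpc3, Ryr2, Tnnt2, Tnni3, Actc1 and Myl2, where 20.7% of the 18660 genes tested had this order. The estimated log2 fold change (KO minus WT) was below 0 for 9 of the 10 genes, against 47.8% of all genes, and its median was -1.19 (-0.70 without WT1 and -1.94 without KO1), against 0.015 over all genes. None of the 10 passed an adjusted p of 0.05 (edgeR quasi-likelihood test, Benjamini-Hochberg adjustment over all genes tested), where 2.28% of all genes did. At an unadjusted p of 0.05, 6 of the 10 (Myh6, Mybpc3, Ryr2, Tnnt2, Tnni3 and Myl2) were lower in KO, and 13.4% of all genes were. The 10 genes summed to 5278, 2724 and 2623 CPM in WT1, WT2 and WT3 and to 1967, 1095 and 1107 CPM in KO1, KO2 and KO3, so WT1 and KO1 were the highest libraries of their genotypes.

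**Figure D1:**
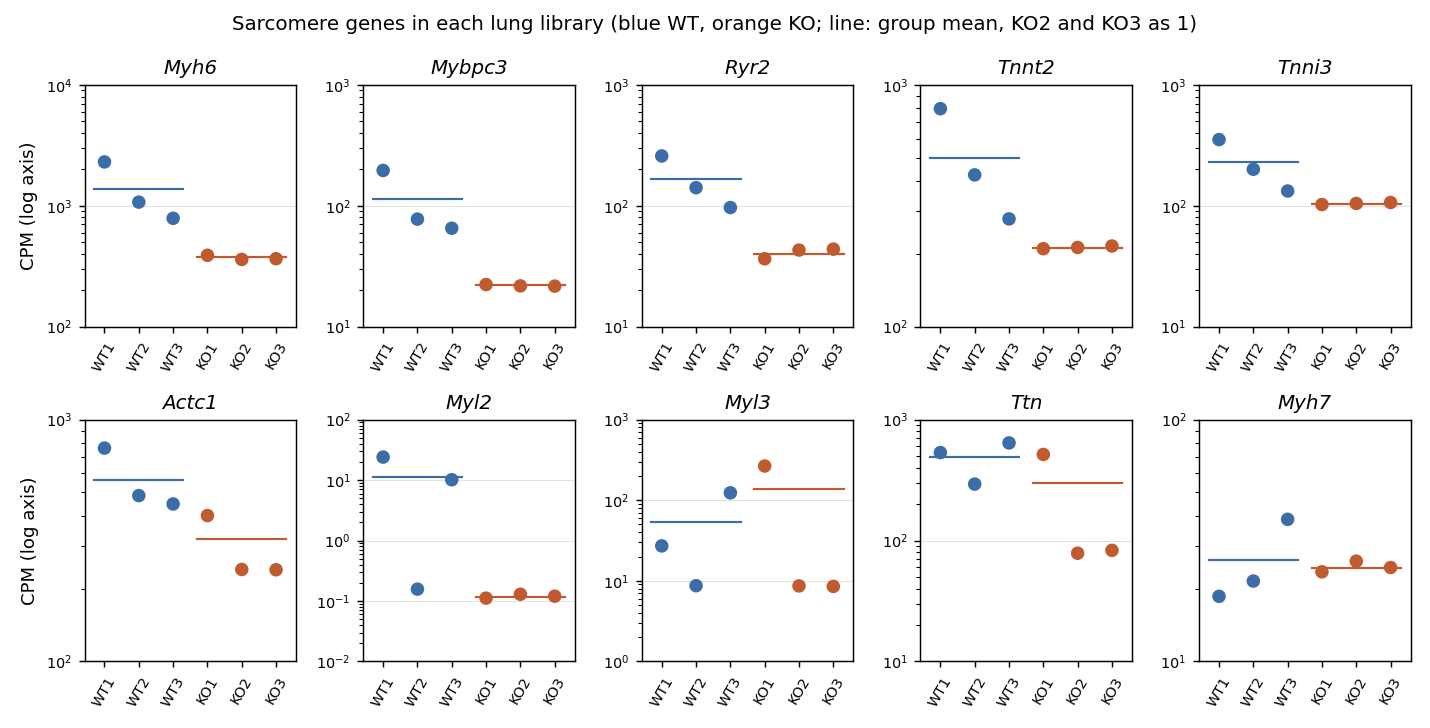
CPM of each of the 10 genes in the 6 libraries, on log axes that differ between panels, with points for libraries and lines for the group means (KO2 and KO3 counted as 1 sample). In the panels of Myh6, Mybpc3, Ryr2, Tnnt2, Tnni3 and Actc1 all KO points lie below all WT points and WT1 is highest, whereas Myl3 is highest in KO1 (266 CPM) and WT3 (124 CPM).

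Myh6 (ENSMUSG00000040752, chr14:54941921-54966927, minus strand, GRCm38), the heavy chain that drives contraction in adult mouse heart, had the highest CPM of the 10 genes in every library except KO1, where Ttn and Actc1 were higher. It measured 2306, 1072 and 787 CPM in WT1, WT2 and WT3 and 389, 360 and 365 CPM in KO1, KO2 and KO3. The KO libraries were almost equal to each other, and the lowest WT library was still above the highest KO library. WT averaged 1389 ± 807 CPM (SD, n = 3) and KO 376 ± 19.1 CPM (SD, n = 2), which gave a log2 fold change of -1.88 ± 0.51 (SE) and an adjusted p of 0.0965. Without WT1 the estimate was -1.30.

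Mybpc3 (ENSMUSG00000002100, chr2:91118144-91136516, plus strand), which binds myosin along the thick filament and sets how readily the heads engage, is made almost only in heart muscle. It measured 196, 77.5 and 65.2 CPM in WT1, WT2 and WT3 and 22.3, 21.7 and 21.6 CPM in KO1, KO2 and KO3. The KO libraries again lay within a narrow range below the WT range. On the log2 scale KO was lower by estimate, at -2.36 ± 0.56 (SE; adjusted p = 0.0790), from means of 113 ± 72.2 CPM (SD, n = 3) and 22.0 ± 0.438 CPM (SD, n = 2). It was -1.69 without WT1.

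Ryr2 (ENSMUSG00000021313, chr13:11553102-12106945, minus strand), the channel that releases calcium from the sarcoplasmic reticulum at each beat, had the smallest p-value of the 10 genes. It measured 258, 141 and 96.7 CPM in WT1, WT2 and WT3 and 36.4, 43.0 and 43.8 CPM in KO1, KO2 and KO3. The order of the WT libraries was that of Myh6 and Mybpc3, and KO1 was the lowest library. The log2 fold change was -2.05 ± 0.46 (SE; adjusted p = 0.0721) between 165 ± 83.5 CPM (SD, n = 3) and 39.9 ± 4.93 CPM (SD, n = 2).

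Tnnt2 (ENSMUSG00000026414, chr1:135836354-135852260, plus strand), cardiac troponin T, anchors the troponin complex to tropomyosin. It measured 797, 424 and 279 CPM in WT1, WT2 and WT3 and 210, 213 and 216 CPM in KO1, KO2 and KO3. Tnni3 (ENSMUSG00000035458, chr7:4518305-4524229, minus strand), cardiac troponin I, the inhibitory subunit, measured 353, 201 and 133 CPM in the WT libraries and 102, 105 and 106 CPM in the KO libraries. These troponin genes followed each other almost exactly across libraries (Pearson's r = 0.9998 of log2 levels over 6 libraries, a description only), and in both the gap between WT3 and the KO libraries was small beside the gap between WT1 and WT3. The log2 fold changes were -1.24 ± 0.46 (SE; adjusted p = 0.170) for Tnnt2 and -1.14 ± 0.43 (adjusted p = 0.172) for Tnni3. Without WT1 they were -0.72 and -0.67, so for Tnnt2, as for Tnni3, this library moved the value by more than 1.5 times.

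Actc1 (ENSMUSG00000068614, chr2:114047282-114053548, minus strand), the cardiac alpha-actin of the thin filament, measured 763, 485 and 448 CPM in WT1, WT2 and WT3 and 401, 240 and 239 CPM in KO1, KO2 and KO3. Here KO1 was 1.67 times the mean of KO2 and KO3 and came close to WT3, although the genotypes did not overlap. KO minus WT on the log2 scale was -0.82 ± 0.33 (SE; adjusted p = 0.194), between 565 ± 172 CPM (SD, n = 3) and 320 ± 114 CPM (SD, n = 2). Without WT1 it was -0.54, and without WT3 and KO1 it was -1.38.

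6 of the 10 genes (Myh6, Mybpc3, Ryr2, Tnnt2, Tnni3 and Actc1) shared 1 order of libraries, with WT1 above WT2, WT2 above WT3 and WT3 above every KO library. The order was read from these genes' values, so its share of 3.44% over all genes is given as a description only. The ratio of WT1 to WT2 was between 1.57 (Actc1) and 2.53 (Mybpc3) in these genes, and that of WT2 to WT3 between 1.08 (Actc1) and 1.52 (Tnnt2).

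Myl2 (ENSMUSG00000013936, chr5:122100951-122113472, plus strand), the regulatory light chain of ventricular muscle, had a different pattern in the WT libraries. Its counts were 1760, 11 and 608 in WT1, WT2 and WT3 and 7, 8 and 7 in KO1, KO2 and KO3, that is 24.0, 0.157 and 10.1 CPM against 0.111, 0.129 and 0.120 CPM. WT2 was thus at nearly the level of the KO libraries, and WT1 was 153 times WT2, so the lack of overlap between genotypes rests on 11 counts. The log2 fold change was -6.57 ± 2.18 (SE; adjusted p = 0.140), between 11.4 ± 12.0 CPM (SD, n = 3) and 0.118 ± 0.00931 CPM (SD, n = 2). Bmp10, an atrial growth factor gene, had 2578, 0 and 532 counts in the WT libraries and 0 in each KO library. Nppb, which encodes the natriuretic peptide BNP, was counted 766, 12 and 77 times in WT libraries and 0, 4 and 5 times in KO libraries. These genes were singled out after their values were seen, and they ranked the libraries WT1, WT3 and WT2 as Myl2 did.

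Myl3 (ENSMUSG00000059741, chr9:110741861-110769798, plus strand), the essential light chain of ventricular muscle and of slow skeletal fibres, was the only gene of the 10 with a positive estimate. It measured 27.1, 8.69 and 124 CPM in WT1, WT2 and WT3 and 266, 8.64 and 8.52 CPM in KO1, KO2 and KO3. The high libraries were WT3 and KO1, those with skeletal muscle and squamous epithelium transcripts, and WT2, KO2 and KO3 were nearly equal. The log2 fold change was 1.37 ± 1.57 (SE; adjusted p = 0.626), and it was -1.07 without WT3 and KO1. Between WT2 and the mean of KO2 and KO3 the ratio was 0.987. The part of skeletal muscle RNA in the Myl3 levels of WT3 and KO1 was not tested.

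Ttn (ENSMUSG00000051747, chr2:76703980-76982547, minus strand), the giant protein that spans the sarcomere from its edge to its centre in heart and skeletal muscle, measured 534, 293 and 642 CPM in WT1, WT2 and WT3 and 516, 78.5 and 83.0 CPM in KO1, KO2 and KO3. KO1 was within the range of the WT libraries and 6.39 times the mean of KO2 and KO3, which lay below the whole WT range. Its estimate was -0.72 ± 0.80 on the log2 scale (SE; adjusted p = 0.617) with every library used and -2.36 (adjusted p = 0.00426, edgeR) without WT3 and KO1. Ttn has the longest transcript of the 10 genes, and long genes were lower in KO over the whole table: Spearman's rho between log2 fold change and exon length was -0.33 across 18524 genes, and the median log2 fold change was -0.20 in the 1450 genes over 10 kb. With the length trend taken out of each library the estimate for Ttn was 0.0057, that for Ryr2, the second longest of the 10, was -1.67, and that for Myh6 was -1.80. Ttn has 116825 bases of exons and Ryr2 28790, and how well the trend is set at the length of Ttn was not examined.

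Myh7 (ENSMUSG00000053093, chr14:54970684-54994626, minus strand), the fetal and slow heavy chain that lies beside Myh6, did not follow it. It measured 18.6, 21.5 and 38.7 CPM in WT1, WT2 and WT3 and 23.5, 26.0 and 24.4 CPM in KO1, KO2 and KO3, so WT1 was the lowest library and the KO libraries lay inside the WT range. Its fitted log2 fold change was -0.10 ± 0.33 (SE; adjusted p = 0.871), and it was 0.33 without WT3 and KO1. Of the 50-base stretches in the exons of Myh7, 15.59% also occur in Myh6, so reads may have been lost or shared between these genes. An antisense transcript known as Mhrt, listed as D830015G02Rik, covers 484 bases (5.62%) of the exons of Myh7, and whether the counts were made by strand is not given in the sources used here. D830015G02Rik had 535, 240 and 130 counts in the WT libraries and 63, 113 and 97 in the KO libraries (log2 fold change -1.64 ± 0.61, SE; adjusted p = 0.168), an order closer to that of Myh6 than to that of Myh7.

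**Figure D2:**
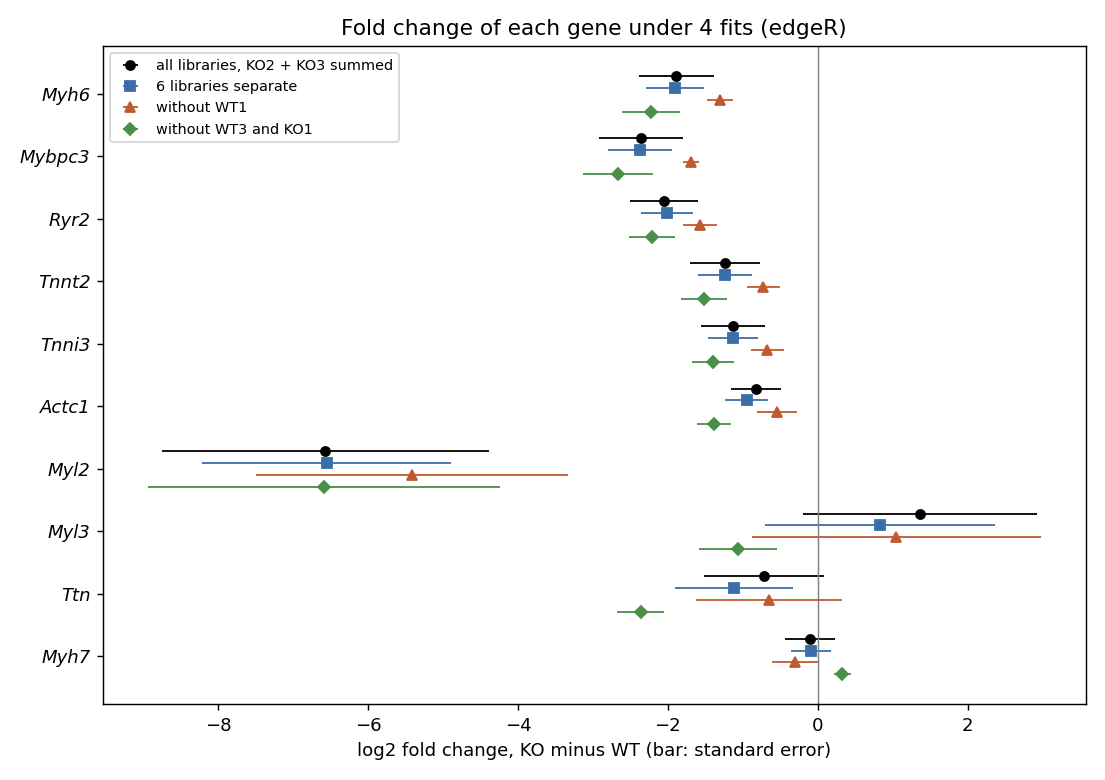
Log2 fold change (KO minus WT) of each gene with its standard error under 4 edgeR fits: all libraries with KO2 and KO3 summed, the 6 libraries kept separate, without WT1, and without WT3 and KO1. Points left of 0 are lower in KO; Ttn moves from -0.72 to -2.36 and Myl3 from 1.37 to -1.07 when WT3 and KO1 are left out.

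The calls depended on the test and on which libraries were used. With the 6 libraries kept separate, 4 of the 10 genes passed as lower in KO (Myh6, Mybpc3, Ryr2 and Myl2), where 9.07% of all genes did, and DESeq2 on the summed libraries called 4 as lower as well, where 10.5% of all genes were. Without WT3 and KO1, 7 of the 10 passed (Myh6, Mybpc3, Ryr2, Tnnt2, Tnni3, Actc1 and Ttn), where 5.88% of all genes did. The edgeR exact test called 2 (Mybpc3 and Ryr2; 0.782% of all genes lower), the fit with the 6 libraries kept separate and the replicate number as a block 2 (Mybpc3 and Actc1; 3.43%) and the fit with a term for the squamous list 2 (Mybpc3 and Ryr2; 6.2%). Without WT3 and KO1 the adjusted p was lowest for Ttn (0.00426) and Ryr2 (0.00548) and was 0.110 for Myl2. That fit has 2 WT samples and KO2 and KO3 as 1 sample, which is assumed to vary as the WT samples do. Over the settings tried, the adjusted p ranged from 0.0108 to 0.220 for Myh6, from 0.00544 to 0.198 for Mybpc3 and from 0.00222 to 0.206 for Ryr2, and their direction did not change in any of 17.

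Within the libraries with low squamous epithelium transcripts, the mean of KO2 and KO3 was below both WT1 and WT2 for 9 of the 10 genes, where 39.9% of all genes were; Myh7 was the exception, and for Myl3 (8.58 against 8.69 CPM in WT2) and Myl2 the gap to WT2 was small. The log2 ratio of the mean of KO2 and KO3 to the mean of WT1 and WT2 was -2.22 for Myh6, -2.66 for Mybpc3, -2.20 for Ryr2, -2.36 for Ttn, -1.51 for Tnnt2, -1.39 for Tnni3 and -1.38 for Actc1. Between the libraries where these were high, KO1 was below WT3 for 9 of the 10 genes, where 49.5% of all genes were, and Myl3 was the exception. Here the log2 ratios were closer to 0 for the same genes: -1.02 for Myh6, -1.55 for Mybpc3, -1.41 for Ryr2, -0.32 for Ttn, -0.41 for Tnnt2, -0.37 for Tnni3 and -0.16 for Actc1. KO1 and WT3 are single libraries, so this ratio has no replicate check, and whether the ratios of the pairs differ was not tested.

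**Figure D3:**
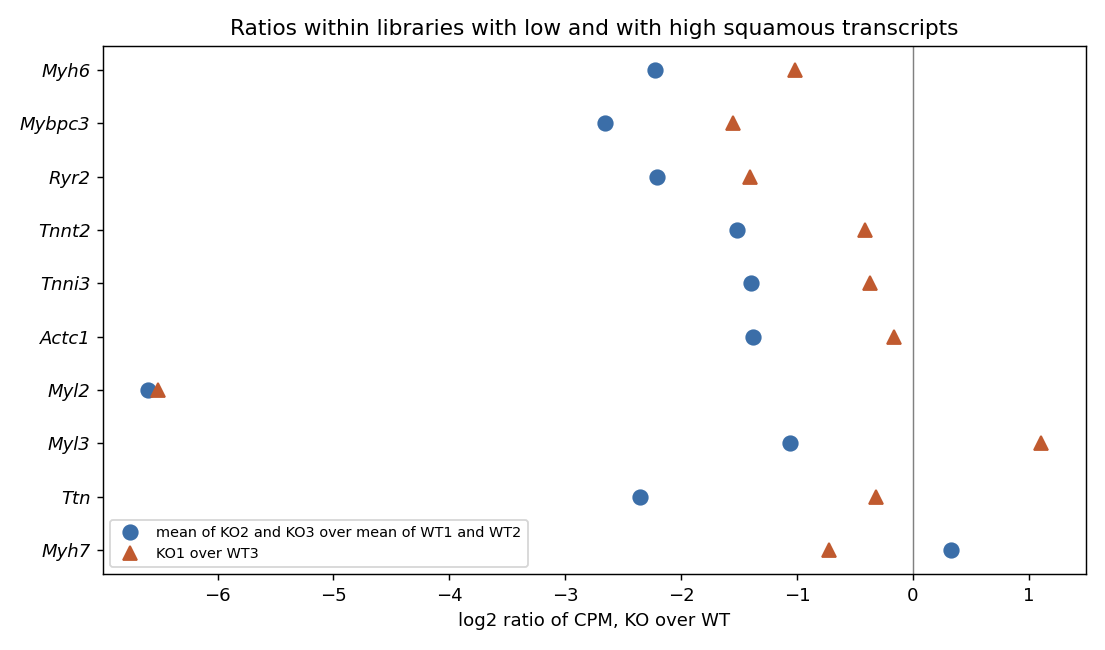
Log2 ratio of CPM, KO over WT, for each gene: circles for the mean of KO2 and KO3 over the mean of WT1 and WT2, triangles for KO1 over WT3. Circles are left of 0 for all genes except Myh7 (0.33) and triangles for all except Myl3 (1.11); the triangles of Actc1, Ttn, Tnni3 and Tnnt2 lie between -0.41 and -0.16.

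Levels were compared between genes as CPM per kb of the principal transcript. In WT, Tnnt2 (417 ± 223 CPM per kb, SD, n = 3) and Actc1 (384 ± 117) were highest, followed by Tnni3 (251 ± 124) and Myh6 (227 ± 132). Myl3 (56.7 ± 65.9) and Mybpc3 (27.1 ± 17.4) came next, then Myl2 (12.9 ± 13.5), Ryr2 (9.84 ± 4.97), Ttn (4.88 ± 1.78) and Myh7 (4.21 ± 1.75). Each gene's mean differed from the next by less than the sum of their SDs, but the genes were measured in the same libraries, and within each WT library Actc1 was above Tnni3, Tnni3 above Myh6 and Mybpc3 above Myl2. The order of the other neighbours changed between WT libraries. In KO, Actc1 measured 218 ± 77.5 CPM per kb (SD, n = 2) and Tnnt2 177 ± 2.35, against 114 ± 2.37 for Tnni3, 61.5 ± 3.13 for Myh6, 5.28 ± 0.105 for Mybpc3, 3.91 ± 0.198 for Myh7, 2.37 ± 0.293 for Ryr2 and 0.133 ± 0.0105 for Myl2. Myl3 (147 ± 194) and Ttn (2.97 ± 3.06) had no clear place in this order, since KO1 stood far above KO2 and KO3. The first place of Actc1 also came from KO1 (272 against 175 CPM per kb for Tnnt2), and in KO2 and KO3 Tnnt2 was the higher (177 and 180 against 163 and 162). Ryr2 was above Myh7 per kb in WT1 and WT2 (15.4 and 8.40 against 2.98 and 3.45 CPM per kb) and below it in WT3 (5.75 against 6.21) and in KO1, KO2 and KO3 (2.17, 2.56 and 2.60 against 3.77, 4.17 and 3.92).

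Ratios within a library do not depend on how libraries are scaled. Tnnt2 was 176% to 202% of Myh6 per kb in the WT libraries and 275% to 301% in the KO libraries, and Tnni3 was 103% to 125% of Myh6 in WT and 176% to 196% in KO. Mybpc3 went the other way, with 10.6% to 12.5% of Myh6 in WT and 8.41% to 8.87% in KO. The genotypes did not overlap in these 3 ratios or in that of Actc1 (137% to 236% in WT and 272% to 428% in KO). They overlapped in that of Ryr2 (4.07% to 4.79% in WT and 3.40% to 4.37% in KO). Myh6 itself was lower in every KO library, and how many genes' ratios to Myh6 separate the genotypes was not counted. Myh7 was 0.790%, 1.97% and 4.82% of Myh6 per kb in WT1, WT2 and WT3 and 5.92%, 7.09% and 6.58% in KO1, KO2 and KO3, so that its share was higher in KO although its own level was not. These ratios were described and not tested. They compare transcripts of different length. Each library's deviation from a gene's mean log2 level was rank-correlated with exon length over 18524 genes. The correlation was 0.236 to 0.330 in the WT libraries and -0.263 to -0.186 in the KO libraries. With an offset by exon length the log2 fold changes were -1.80 for Myh6, -1.32 for Tnni3 and -1.12 for Tnnt2. The gap to Myh6 was thus smaller than without the offset for Tnni3 but not for Tnnt2. This offset used all annotated exons joined, 7752 bases for Tnnt2 and 6726 for Myh6, not the principal transcripts of 1200 and 6113 bases. It therefore cannot show what transcript length adds to the Tnnt2 ratio.

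The name ventricular fitted these libraries only in part. Myl2 per kb was 2.71%, 0.0352% and 3.10% of the atrial light chain Myl7 in WT1, WT2 and WT3 and 0.0484% to 0.0539% in the KO libraries, so the ventricular regulatory light chain was near the floor in 4 of 6 libraries while its atrial counterpart was at 153 to 588 CPM in all 6. Myl3, the other ventricular light chain, was above the floor in all 6, at 2.9%, 1.85% and 35.9% of Myl7 per kb in WT1, WT2 and WT3 and 110%, 3.43% and 3.36% in KO1, KO2 and KO3. The 11 atrial genes of a list chosen with earlier results known summed to 4226, 1596 and 1564 CPM in WT1, WT2 and WT3 and to 927, 821 and 813 CPM in KO1, KO2 and KO3. All 11 had a negative estimate (median log2 fold change -1.79), 9 of 11 were lower in every KO library (20.7% of all genes), and 0 passed the adjusted p, with 8 lower at an unadjusted p of 0.05 (13.4% of all genes). Nppa, which encodes atrial natriuretic peptide, measured 1470, 146 and 322 CPM in WT and 22.4, 22.3 and 23.9 CPM in KO (log2 fold change -4.83 ± 1.21, SE; adjusted p = 0.0867). Myl7 measured 588, 296 and 217 CPM in WT and 153, 159 and 160 CPM in KO, and Myl4, the atrial essential light chain, 666, 346 and 254 CPM against 207, 199 and 197 CPM. In Myl7 and Myl4 the WT libraries stood in the order of Tnnt2 and Tnni3, whereas Nppa ranked WT3 above WT2.

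Among 20 other sarcomere genes, 14 had a negative and 6 a positive estimate (median log2 fold change -0.28), 3 were lower in every KO library (Tnnc1, Myoz2 and Nebl) and 0 passed, with 2 at an unadjusted p of 0.05, shares no higher than the 20.7% and 13.4% of all genes. Tnnc1, the calcium-binding troponin subunit, measured 103, 52.0 and 42.6 CPM in WT and 29.3, 27.0 and 29.2 CPM in KO. The genes of this list with the highest levels per kb are shared with smooth or skeletal muscle: Tpm1, a tropomyosin, measured 723 to 927 CPM in WT and 621 to 1128 CPM in KO, Des (desmin) 190 to 462 CPM and 212 to 665 CPM, and Tcap, which caps titin, 77.1 to 143 CPM and 66.3 to 204 CPM. KO1 was the highest library for all 3, and the genotypes overlapped.

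Of 13 genes that move calcium or set its handling, 11 had a negative and 2 a positive estimate (median log2 fold change -0.78), 5 were lower in every KO library and 0 passed, with 5 at an unadjusted p of 0.05, against 20.7% and 13.4% of all genes. Atp2a2 encodes the pump SERCA2 that returns calcium to the store. It measured 1591, 935 and 802 CPM in WT and 480, 460 and 461 CPM in KO (log2 fold change -1.24 ± 0.32, SE; adjusted p = 0.0922). Its inhibitor Pln (phospholamban) measured 133, 66.4 and 38.9 CPM in WT and 18.8, 22.6 and 24.0 CPM in KO (log2 fold change -1.91 ± 0.56, SE; adjusted p = 0.111). Sln (sarcolipin), the inhibitor used in atrial muscle, measured 141, 69.8 and 77.9 CPM in WT and 80.6, 30.5 and 32.3 CPM in KO, so KO1 overlapped the WT libraries. With the 6 libraries kept separate, Atp2a2, Pln, Casq2, Slc8a1 and Cacna1c passed as lower, that is 5 of 13, beside the 9.07% of all genes given above. That fit counts KO2 and KO3 as separate samples, although they differed little beyond counting noise.

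Of 7 genes of heart energy supply, 6 had a negative estimate and 4 were lower in every KO library, with a median log2 fold change of -1.10, and 0 passed, with 4 at an unadjusted p of 0.05 (all genes: 20.7% lower in every KO library, 13.4% lower at this p). Mb (myoglobin) measured 532, 256 and 479 CPM in WT and 443, 109 and 106 CPM in KO, and Cox6a2, a subunit of cytochrome oxidase in striated muscle, 95.1, 48.7 and 67.3 CPM against 57.2, 32.3 and 32.2 CPM. Ckm, the muscle creatine kinase, was high in WT3 (540 CPM) and KO1 (787 CPM) and lay between 24.1 and 88.4 CPM elsewhere, as Myl3 did. Of 12 tested transcription factors of heart muscle (13 listed), 10 had a negative estimate and 8 were lower in every KO library (20.7% of all genes), with a median log2 fold change of -0.36, and 0 passed (5 at an unadjusted p of 0.05, against 13.4% of all genes). Factors more restricted to the heart, named here after their values were seen, had larger estimates: -2.15 for Nkx2-5, -1.58 for Tbx20, -1.42 for Hand2, -1.39 for Myocd and -1.07 for Gata4, and in each of these the genotypes did not overlap. Tead1, which binds the MCAT motif, measured 226, 256 and 255 CPM in WT and 175, 179 and 188 CPM in KO (log2 fold change -0.45 ± 0.076, SE; adjusted p = 0.0523). Mef2a measured 163 to 175 CPM in WT and 152 to 161 CPM in KO, and Srf 78.8 to 97.1 CPM and 88.2 to 101 CPM, both factors that many other cell types make.

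Markers of other tissues were compared across the same libraries. Of the 19 skeletal muscle genes, 16 had a positive estimate (median log2 fold change 0.94). Of these 19, 0 passed or reached an unadjusted p of 0.05, against 2.28% and 27.3% of all genes. Acta1, skeletal actin, measured 1202 CPM in WT3 and 2061 CPM in KO1 and 0.411 to 1.83 CPM elsewhere, Tnnt3 456 and 648 CPM against 5.09 to 7.60 CPM, and Tnnc2 239 and 379 CPM against 0.0685 to 0.328 CPM. Of the squamous genes, 11 of 11 had a positive estimate (median 1.31) and 0 passed or reached an unadjusted p of 0.05, beside the same shares of all genes. Krt13 (1857 and 3582 CPM against 0.356 to 0.977 CPM), Krt4 (1989 and 3697 CPM against 0.371 to 0.929 CPM) and Sprr3 (214 and 374 CPM against 0 to 0.0683 CPM) split the libraries in the same way. The part of skeletal muscle RNA in Ttn, Actc1 and Myl3 in WT3 and KO1 was not tested.

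**Figure D4:**
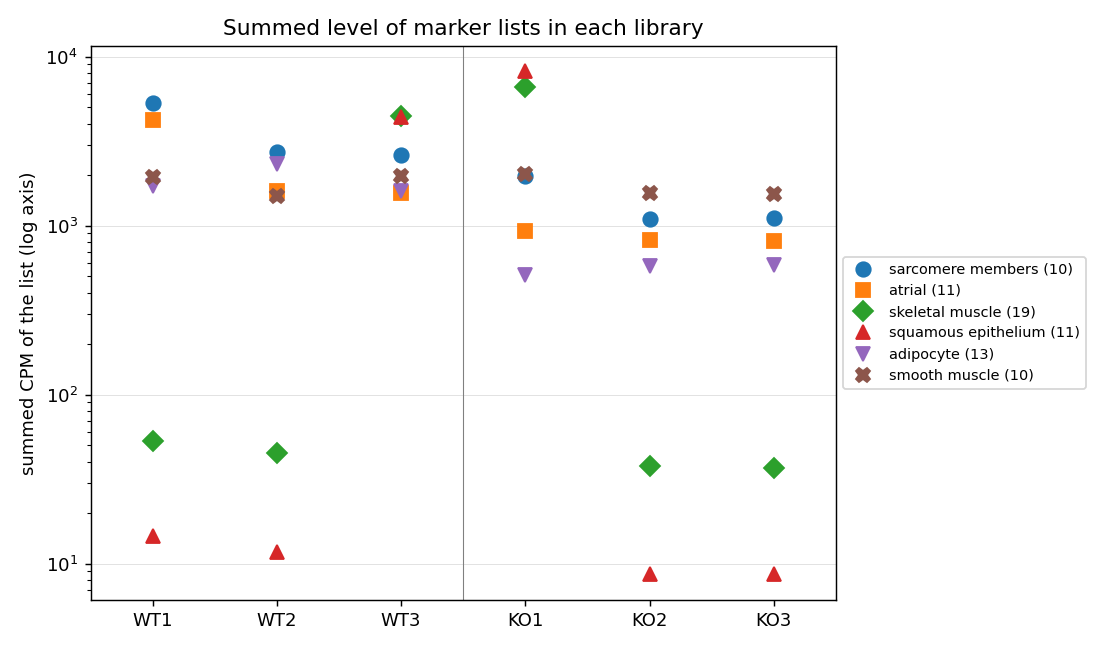
Summed CPM (log axis) of the 10 sarcomere genes and of 5 marker lists in each library. The skeletal muscle and squamous lists are high in WT3 and KO1 alone, the adipocyte list is lower in all KO libraries (510 to 584 CPM) than in all WT libraries (1600 to 2299 CPM), and the smooth muscle list lies between 1492 and 2009 CPM in all 6.

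Fat cell markers were lower in the KO libraries. The 13 adipocyte genes all had a negative estimate (median log2 fold change -2.50). All 13 were lower in every KO library (20.7% of all genes) and at an unadjusted p of 0.05 (13.4% of all genes). Of the 13, 4 passed (Lpl, Pck1, Plin4 and Plin1), where 0.906% of all genes passed as lower. The 13 genes summed to 1718, 2299 and 1600 CPM in WT1, WT2 and WT3 and to 510, 578 and 584 CPM in KO1, KO2 and KO3. WT2 was thus highest in fat cell markers and WT1 in the sarcomere genes. Lpl, lipoprotein lipase, measured 364 to 367 CPM in WT and 175 to 178 CPM in KO, and Pck1, which supplies glycerol for fat storage, 85.3 to 123 CPM and 4.79 to 9.72 CPM. Cfd was at 194 to 332 CPM in WT and 45.8 to 147 CPM in KO, Fabp4 207 to 374 CPM and 25.4 to 68.8 CPM, and Car3 359 to 486 CPM and 83.3 to 188 CPM. Lung epithelium genes went the other way, with 10 of 10 estimates positive and 7 passing as higher, where 1.38% of all genes did. Sftpc, the surfactant protein of type 2 cells, measured 12108 to 12527 CPM in WT and 18215 to 19570 CPM in KO, Sftpb 3169 to 3443 CPM and 4470 to 4674 CPM, and Scgb1a1, of club cells, 23366 to 27473 CPM and 32115 to 42793 CPM. Scgb1a1 was not among the 7 that passed (adjusted p = 0.0917), which were Sftpc, Sftpb, Ager, Sftpa1, Hopx, Sftpd and Tppp3. Whether the levels of the adipocyte and lung epithelium lists have a part in the sarcomere results was not tested.

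Smooth muscle markers were split, with 5 of 10 higher and 5 lower (median log2 fold change 0.01), 0 passing and 1 at an unadjusted p of 0.05, against 2.28% and 27.3% of all genes. Acta2 measured 250 to 364 CPM in WT and 290 to 390 CPM in KO, Tagln 180 to 239 CPM and 244 to 297 CPM, and Mylk 504 to 562 CPM and 449 to 485 CPM. Of 6 genes of fibroblasts and epicardium, 3 were higher and 3 lower, and Dcn (decorin) alone passed as lower (0.906% of all genes), with 379 to 414 CPM in WT and 200 to 234 CPM in KO. Postn measured 438 to 474 CPM and 348 to 458 CPM, and Tcf21 72.0 to 88.5 CPM and 79.3 to 114 CPM. The 5 red cell genes all had positive estimates and 0 passed (2 at an unadjusted p of 0.05, against 27.3% of all genes), and their sum was 2397 to 5517 CPM in WT, 3970 CPM in KO1 and 18984 and 19718 CPM in KO2 and KO3. Hbb-bs was at 1452 to 3240 CPM in WT and 2203 to 11523 CPM in KO, Hba-a1 at 352 to 903 and 757 to 3223 CPM, and Hba-a2 at 230 to 572 and 486 to 2075 CPM. Red cell genes separated KO2 and KO3 from KO1, whereas Myh6, Mybpc3, Tnnt2 and Tnni3 were nearly equal in the 3 KO libraries.

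The genes outside the list whose pattern was most like the mean of the 10 genes' centred log2 levels, among 15144 genes with a mean of at least 1 CPM, were Prex1 and Pxdn (both r = 0.995), Nnt, Tmod1, Tfb1m and Shank1 (each r = 0.991), Smurf1 (r = 0.989) and Colec11 (r = 0.985). These are Pearson's r over 6 libraries, for which many genes reach such values, and they serve as a description. The mean mixes several patterns, so the nearest gene of single members was looked up after the values were seen. It was Atp2a2 for Myh6 (r = 0.999) and for Mybpc3 (r = 0.998), Sorbs2 for Ryr2 (r = 0.997), Cmya5 for Ttn (r = 0.998), Mfap4 for Myl3 (r = 0.995), Nrxn2 for Myl2 (r = 0.999), Tmem144 for Actc1 (r = 0.999) and Ighv5-17 for Myh7 (r = 0.987), and Tnnt2 and Tnni3 were nearest to each other. Tmod1, which caps the thin filament at its pointed end, measured 133, 108 and 116 CPM in WT and 99.99, 89.9 and 86.7 CPM in KO.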

How the data were processed

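Total lung RNA was sequenced by the study. The deposited table holds raw counts per gene and library (counts, not normalized), which the authors made by trimming the reads, aligning them to GRCm38 (mm10 in the submitters' processing notes) and counting reads per gene; the notes name Trimmomatic 0.36, STAR 2.5.3a, Picard 2.9.0 and HTSeq 0.6.0. The annotation release, the read length and the strand setting are not given in the sources used here, so counts of genes that overlap or resemble another gene are uncertain. All 6 sample columns were used, and no row without a gene entered the library sizes.

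Genotypes came from the labels. KO2 and KO3 were summed (n = 3 and 2), genes with low counts were filtered with filterByExpr, libraries were scaled by TMM, and edgeR 4.0.16 in R 4.3.3 fitted all genes with the quasi-likelihood test and Benjamini-Hochberg adjustment (threshold 0.05). P-values measure only the spread between these samples. DESeq2 1.42.0, other scalings and filters, a length offset, each library left out and, chosen after seeing the data, fits without WT3 and KO1 and with a squamous term were the alternatives. The length offset used the joined length of all annotated exons of a gene. CPM used TMM-scaled sizes; CPM per kb used the longest principal transcript of GENCODE M21, which matched 40340 of 41388 gene identifiers (97.5%). Counts carry no molecular identifiers, so the limit of 3 counts covers counting error only. Promoters are from RefSeq (GRCm38.p6), which lists all 10 genes.

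The 10 genes and the lists were chosen with earlier results of these data known. Named were the 10 genes, from each list the 3 genes with the highest CPM per kb and those that passed, and the 8 genes most like the mean pattern. Those named by other choices are marked as chosen after their values were seen or are the members of a count.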

Additional observations from a re-analysis of the deposited data

How the results depend on the processing

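Of 169 estimates for single genes under the alternatives, 140 kept their direction and stayed on the same side of the threshold, 21 kept their direction and passed it, and 8 changed direction. The number of the 10 genes that passed was 4 with the 6 libraries kept separate (3402 of all genes against 426), 4 with DESeq2 (3875), 2 with the edgeR exact test (Mybpc3 and Ryr2; 209), 7 without WT3 and KO1 (2256; median log2 fold change -1.86) and 2 with a term for the squamous list (Mybpc3 and Ryr2; 2563), the last pair chosen after seeing the data. Leaving out 1 library at a time, no gene of the 10 passed and the count over all genes ranged from 0 (without WT1, WT2 or WT3, with 3642, 3346 and 4193 genes at an unadjusted p of 0.05, edgeR) to 418; it was 17 without KO1, and the median log2 fold change of the 10 ranged from -1.94 (without KO1) to -0.70 (without WT1). At least 10 counts in every library gave 937 calls over all genes and dropped Myl2, and a length offset gave 0 (3156 at an unadjusted p of 0.05, edgeR; with DESeq2 and no offset 3875). With library size alone, 117 genes were higher and 189 lower, against 257 and 169 with TMM.

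The replicate numbers are only numbers: deviations of same-numbered WT and KO libraries correlated at -0.54, 0.69 and -0.76, and KO1 deviated most like WT3 (0.80). With the 6 libraries kept separate and the number as a replicate block, 2 of the 10 genes (Mybpc3 and Actc1) and 1157 of all genes passed, fewer than the 4 and 3402 without the block, and the estimate for Myl3 was -0.10. Myl3 also changed direction without WT3 and KO1 (-1.07), with the squamous term (-0.12) and in leaving out 1 library (-2.63 without KO1 to 2.94 without WT3). Myh7 was at 0.33 without WT3 and KO1, at 0.035 with the length offset and between -0.30 and 0.28 when 1 library was left out. Ttn was at 0.0057 with the length offset, and its lowest value was -2.61, without KO1. The causes of these shifts were not tested. Counts of 7 to 11 limit the precision of Myl2 in WT2 and KO.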
